A study of Homo sapiens with 21 samples.

Results

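Molecular chaperones are proteins that bind other proteins while they fold, assemble, cross membranes or are degraded. HSP70 proteins bind and release short stretches of unfolded chains; J-proteins (the DNAJ genes) bring substrates to them and start their ATPase, and BAG proteins and the HSP110 group (HSPH1, HSPA4, HSPA4L) release their nucleotide. HSP90 acts later on client kinases and receptors, the CCT ring folds actin and tubulin, small heat shock proteins hold unfolded chains, and HSPD1 with HSPE1 forms the chaperonin of mitochondria. Heat and proteotoxic stress raise part of these genes through the transcription factor HSF1, which binds heat shock elements in their promoters, and cancer cells are known for high levels of several of them.

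The genes described here were picked by symbol alone: the DNAJA, DNAJB and DNAJC genes, the HSPA, HSPB, HSPD, HSPE and HSPH genes, HSP90AA1, HSP90AB1, the CCT and BAG genes and HSF1, without the endoplasmic reticulum stress genes HSPA5, DNAJB9 and DNAJC3. Each gene was read from its brightest probe set among those annotated with a single symbol. This gave 77 of the 19775 genes on the array, on 184 probe sets. HSF2 was not analysed here, because no probe set carried that symbol in the annotation used. HSPA8, HSPA1A and HSPA1B were not analysed either, because 12 probe sets with a symbol of the rule also carried others, and these 3 genes had only such probe sets. Although the rule was written for cytosolic chaperones, 25 of the 77 genes were listed as known from other compartments: 8 from the endoplasmic reticulum, 9 from mitochondria, 5 from the nucleus and 3 from vesicles.

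HEY is a human ovarian carcinoma cell line. The study transfected growing HEY cells with mir-429, a microRNA of the miR-200 family, using a lipid reagent, and asked how mRNA levels changed over time. The 7 groups, with 3 arrays labelled as biological replicates in each, were cells given mir-429 and harvested after 24, 48 and 144 h, cells given a negative control miRNA and harvested at the same times, and untransfected cells at 0 h. All groups were of 1 cell line grown in the same medium, and the labels do not tell how cultures within a group were kept apart. The p-values therefore describe only the scatter among these arrays, which may be technical. There were no untransfected cells at later times, so comparisons with untransfected cells hold transfection, the added RNA and time in culture together.

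The mature sequence of mir-429 is shown with its 4 relatives because the base sequence that pairs with targets, the seed at bases 2 to 8 (capitals), divides the family. The sequences are those of RefSeq for GRCh38.p14, 5′ to 3′, and that of mir-429 lies at chr1:1169055-1169076 on the plus strand. hsa-miR-429, hsa-miR-200b-3p and hsa-miR-200c-3p share 1 seed, and hsa-miR-200a-3p and hsa-miR-141-3p share another. Matches of the seed in the transcripts of chaperone genes were not analysed here.
hsa-miR-429: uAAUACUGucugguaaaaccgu
hsa-miR-200b-3p: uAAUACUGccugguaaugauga
hsa-miR-200c-3p: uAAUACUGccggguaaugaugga
hsa-miR-200a-3p: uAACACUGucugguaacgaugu
hsa-miR-141-3p: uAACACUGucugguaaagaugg

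Expression is given as RMA log2 values of probe sets, on which 1 unit is a doubling, and levels of different genes cannot be set against each other. Array medians lay between 3.95 and 4.29. The lowest was that of mir-429 replicate 1 at 144 h, and the next lowest was 4.14. Of the 77 genes, 63 lay above the array median on at least 3 arrays and were tested among 12879 genes with limma. A gene is called here when its p, adjusted by Benjamini-Hochberg over all genes tested, was under 0.05. Changes are log2 differences ± SE from 1 model of all 21 arrays, with 3 arrays per group. Of the 63 genes, 57 lay above the array median on all 21 arrays. The other 14 were too dim: 6 small heat shock genes, HSPA1L, HSPA12B, 3 DNAJB, 2 DNAJC and 1 CCT-like gene.

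Cell identity and RNA quality were read from the same arrays. KRT7, KRT8, KRT18, PAX8, VIM, CDH2 and FN1 lay above the median on all 21 arrays, while EPCAM, CDH1 and MUC16, which mark many ovarian carcinomas, did so on 0. Of the 6 leukocyte markers with a probe set only NCAM1 was above the median in the group means, and PTPRC, CD3E, MS4A1 and LYZ were above it on 0 arrays. Of 6 endothelial markers, CDH5 was above it on 21 arrays, KDR on 19, CLDN5 on 17, PECAM1 on 3, TEK on 2 and VWF on 1. The summed log2 level of this list lay between 26.4 and 27.3 in mir-429 and 27.4 and 28.5 in control cells at 24 h. At 48 h it lay between 26.4 and 27.2 in mir-429 and 28.0 and 28.5 in control cells, at 144 h between 27.4 and 30.7 and between 29.5 and 30.1, and in untransfected cells between 30.1 and 30.7; its part in the results was not tested. The summed level of the mesenchymal markers VIM, CDH2 and FN1 was 34.7 to 35.0 in mir-429 and 36.3 to 36.5 in control cells at 24 h, 34.9 to 35.5 and 37.6 to 37.9 at 48 h, 36.9 to 37.1 and 37.0 to 37.2 at 144 h, and 36.8 to 37.0 in untransfected cells. Over all arrays VIM ran from 12.93 to 13.38 and CDH2 from 12.06 to 12.59, while FN1 ran from 9.23 to 12.48. The median change of these 3 genes between the arms was -0.11 (range -1.7 to 0.27) at 24 h. At 48 h it was -0.02 (range -2.66 to 0.05), so the sums do not describe a fall of all 3. The sum of the 9 epithelial markers was 57.8 to 59.1 in mir-429 and 55.5 to 55.8 in control cells at 48 h, and overlapped between the arms at 24 and 144 h. The part of these lists was not tested either. For the GAPDH and ACTB control probe sets the 3' minus 5' signal, which grows as RNA or its copies become shorter, averaged 2.87 ± 0.36 (SD, n = 3) in mir-429 and 4.21 ± 0.21 in control cells at 24 h. After 48 h it was 8.55 ± 0.15 in mir-429 and 7.83 ± 0.62 in control cells, at 144 h 3.35 ± 0.13 and 3.90 ± 0.47, and in untransfected cells 3.15 ± 0.53. The 48 h arrays of both arms thus stood far apart from all others, and at 24 h the arms did not overlap. The spread was also unequal: across the chaperone genes, differences between 2 arrays within a group had an SD of 0.25 to 0.40 in control cells at 48 h, against 0.13 to 0.20 in untransfected cells.

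**Figure D1:**
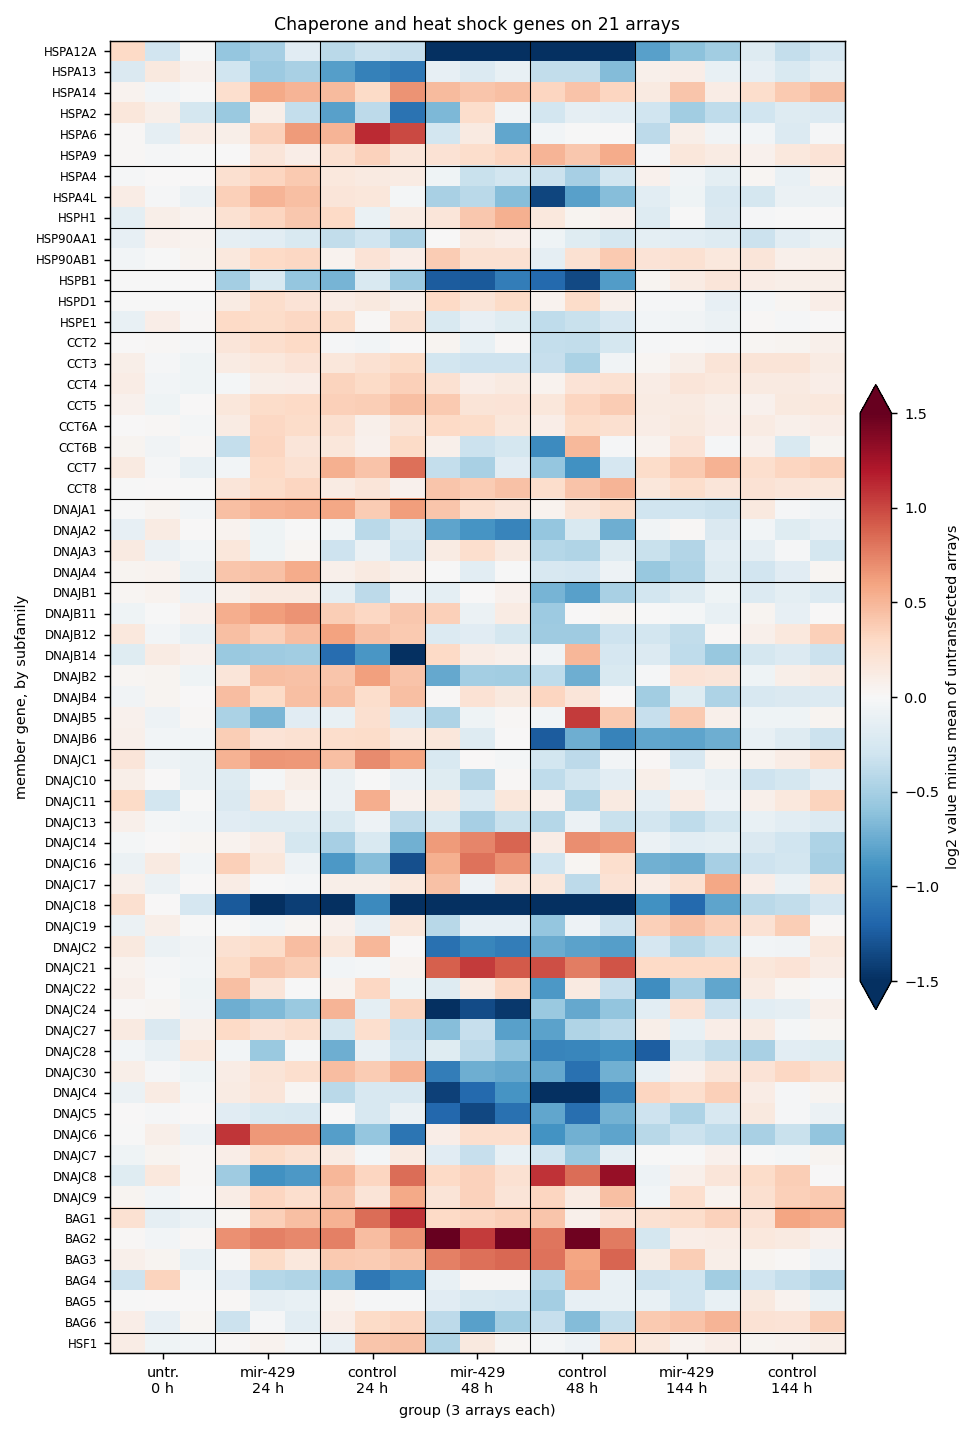
Log2 value of the 63 tested chaperone and heat shock genes on each of the 21 arrays (columns, 3 per group, in time order) minus the mean of the untransfected arrays, grouped by subfamily (black lines). The colour scale ends at 1.5 units, so DNAJC18 and HSPA12A at 48 h and single arrays of some other genes lie beyond it. The 2 arms at 48 h share most of their strong colours, and the control cells at 144 h are pale for most genes.

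Against the control miRNA, mir-429 changed a minority of the chaperone genes, about as often as genes in general. The strongest rise was that of DNAJC6, which encodes auxilin, the J-protein that strips clathrin from vesicles, and the strongest fall was that of DNAJC8, which encodes a J-protein of the spliceosome. Both changes were seen at 24 and 48 h and not called at 144 h. Of the heat shock genes named in every comparison, DNAJB1 was called higher at 24 and 48 h, and its 24 h call was lost under several alternatives. HSP90AA1 was called at none of the 3 times but was higher in their average. HSP90AB1, HSPH1, HSPD1, HSPE1 and HSPB1 were called at none of the 3 times.

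At 24 h, 15 of the 63 genes (23.8%) were called, 9 higher and 6 lower. Over all genes tested 26.6% were called, 15.0% higher and 11.6% lower. The median change of the 63 genes was 0.049, against -0.017 over all genes tested. Changes of 54 of them were smaller than 0.5 in size. At 48 h, 11 genes (17.5%) were called, 7 higher and 4 lower, with a background of 20.6%, of which 9.32% were higher and 11.3% lower. At 144 h, 4 genes (6.35%) were called, all lower, with a background of 5.85%, 1.48% higher and 4.37% lower. Averaged over the 3 times, 15 genes (23.8%) were called, 11 higher and 4 lower, where 28.0% of all genes were, 12.6% higher and 15.4% lower. Taking both directions together, the share among the chaperone genes was below the background at 24 and 48 h and in the average, and 6.35% against 5.85% at 144 h. By direction, higher calls in the average made up 17.5% of the chaperone genes, against 12.6% of all genes, and lower calls 6.35%, against 15.4%. The same direction was called at both 24 and 48 h for 6 genes: DNAJC6, DNAJC16, DNAJB1 and CCT2 were higher, and DNAJC8 and DNAJC24 were lower. In no comparison of mir-429 with control were 37 of the 63 genes called. With the 3' minus 5' signal as a covariate, the 24 h count was 4, namely DNAJC6, DNAJC21, DNAJC8 and DNAJC24, and the averaged count was 9. With the mean of all probe sets of a gene the 24 h count was 8, and it was 9 without control replicate 3 or without mir-429 replicate 1. At 144 h it was 2 after either other scaling and 1 or 2 without any 1 array of either arm. A fit of the 48 h arrays of both arms alone left 5, namely DNAJC6, DNAJB6, DNAJB1, DNAJC8 and DNAJC24. Other bright probe sets of the same genes were read as a check: at 24 h 13 called genes had at least 1 more, and in 6 of them all had the sign of the brightest, which also held for 6 of 9 genes at 48 h.

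**Figure D2:**
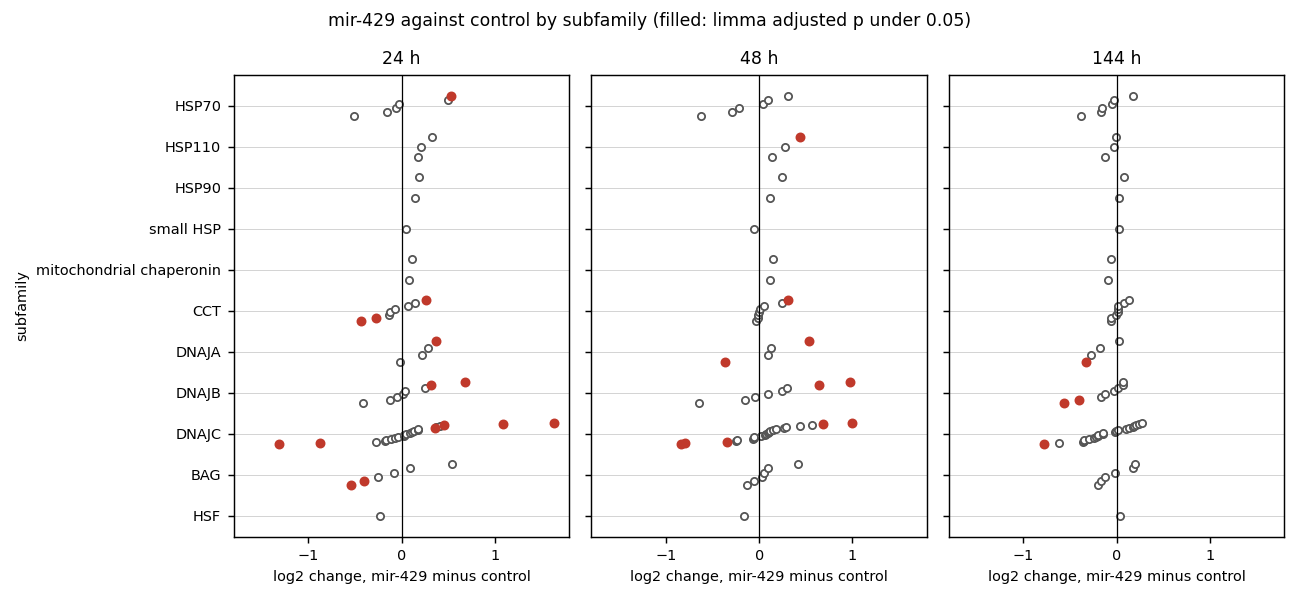
Log2 change of each tested gene in mir-429 against control cells at 24, 48 and 144 h (horizontal axis), by subfamily (vertical axis); filled points passed the limma threshold. The filled points farthest from 0 belong to DNAJ genes, and the HSP90, small heat shock and mitochondrial chaperonin points are open at all 3 times.

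The J-proteins were the largest group, with 34 genes tested, and they held the widest changes. DNAJC6 had 8.60, 8.18 and 8.18 in mir-429 cells at 24 h, against 6.70, 6.95 and 6.43 in control cells. In the 48 h arrays it had 7.63, 7.78 and 7.78 in mir-429 cells, against 6.63, 6.81 and 6.74 in control cells. The arms did not overlap at either time, and the changes were 1.63 ± 0.13 (adjusted p = 1.24e-07) and 1.00 ± 0.13 (adjusted p = 1.89e-05). At 144 h mir-429 cells had 7.11, 7.21 and 7.14 and control cells 7.04, 7.19 and 6.94, which overlapped (change 0.10, adjusted p = 0.754). Untransfected cells had 7.52, 7.61 and 7.45, so that DNAJC6 in mir-429 cells at 24 h lay above untransfected cells (0.79 ± 0.13, adjusted p = 0.000203) and in control cells below them (-0.84 ± 0.13, adjusted p = 9.67e-05). These comparisons share arrays. The call at 24 and 48 h was kept under each alternative tried, with changes of 1.01 to 1.66 and of 0.78 to 1.07 under those that left all replicates in.

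DNAJC16 encodes a J-protein of the endoplasmic reticulum membrane. It had 8.10, 7.91 and 7.67 in mir-429 cells at 24 h, against 6.88, 7.11 and 6.43 in control cells. At 48 h it had 8.28, 8.56 and 8.43 in mir-429 cells, against 7.45, 7.77 and 7.99 in control cells. It was higher in all mir-429 arrays at both times, by 1.09 ± 0.16 (adjusted p = 0.000127) and 0.69 ± 0.16 (adjusted p = 0.00603). Its other probe set changed by 0.44 and 0.59. At 144 h mir-429 arrays had 7.02, 7.0 and 7.24 and control arrays 7.43, 7.47 and 7.26; all mir-429 arrays were then below control, a change of -0.30 that was not called (adjusted p = 0.34). The 24 h call was lost with the 3' minus 5' covariate (0.70, adjusted p = 0.0777), and the 48 h call when the arrays of that time were fitted alone (adjusted p = 0.0576).

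DNAJB14 and DNAJC14, also J-proteins of the endoplasmic reticulum membrane, were higher at 24 h. DNAJB14 had 8.11, 8.13 and 8.14 in mir-429 cells, against 7.52, 7.79 and 7.05 in control cells, a change of 0.68 ± 0.18 (adjusted p = 0.00879). Both arms lay below untransfected cells, which had 8.48, 8.79 and 8.73. DNAJC14 had 7.69, 7.74 and 7.37 in mir-429 cells, against 7.14, 7.40 and 6.91 in control cells (0.45 ± 0.15, adjusted p = 0.0314), and here the arms overlapped. Of the 8 tested genes listed for the endoplasmic reticulum, a list without DNAJC14, 3 were higher and 0 lower at 24 h (DNAJC16, DNAJB14 and HSPA13), with a median of 0.22, where 15.0% of all genes were higher and 11.6% lower. With the 3' minus 5' covariate all 3 lost their call (adjusted p = 0.0777 for DNAJC16, 0.279 for DNAJB14 and 0.198 for HSPA13). Leaving out replicate 3 of the control ended the calls of DNAJB14 (0.47, adjusted p = 0.0679) and DNAJC14 (0.33, adjusted p = 0.169).

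DNAJC8 was lower in mir-429 cells in all 3 of its bright probe sets. In mir-429 cells at 24 h it had 9.39, 9.02 and 9.06, against 10.43, 10.25 and 10.76 in control cells. After 48 h it had 10.23, 10.27 and 10.16 in mir-429 cells, against 11.01, 10.77 and 11.23 in control cells. Every mir-429 array lay below every control array at these times, by -1.32 ± 0.15 (adjusted p = 6.5e-06) and -0.79 ± 0.15 (adjusted p = 0.000959). The 2 other probe sets gave changes of -1.54 and -1.24 at 24 h and of -0.76 and -0.26 at 48 h. In untransfected cells it had 9.75, 10.09 and 9.94, so that at 48 h the control arrays were raised (1.08 ± 0.15, adjusted p = 1.08e-05) and the mir-429 arrays were not called (0.29, adjusted p = 0.106). At 24 h the mir-429 arrays lay below untransfected cells (-0.77 ± 0.15, adjusted p = 0.00104).

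DNAJC24, known as DPH4 and needed to make the diphthamide residue of elongation factor 2, fell too. It had 8.61, 8.68 and 8.78 in mir-429 cells at 24 h, against 9.85, 9.19 and 9.67 in control cells. In the 48 h arrays it had 7.69, 7.99 and 7.89 in mir-429 cells, against 8.78, 8.57 and 8.74 in control cells. The arms were apart at both times, with changes of -0.88 ± 0.15 (adjusted p = 0.000376) and -0.84 ± 0.15 (adjusted p = 0.00059). Its other probe set changed by 0.11 and 0.15, and the mean of its probe sets was not called (-0.38, adjusted p = 0.0972 at 24 h and -0.34, adjusted p = 0.146 at 48 h).

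DNAJB6, a J-protein known to hold back aggregation of polyglutamine proteins, differed in opposite directions at 2 times. At 48 h it had 10.44, 10.07 and 10.27 in mir-429 cells, against 9.02, 9.54 and 9.27 in control cells, 0.98 ± 0.12 higher (adjusted p = 8.72e-06). At 144 h it had 9.49, 9.47 and 9.54 in mir-429 cells, against 10.16, 10.07 and 9.95 in control cells, a change of -0.56 ± 0.12 (adjusted p = 0.00821). At 24 h the arms overlapped, with 10.63, 10.47 and 10.50 in mir-429 and 10.53, 10.54 and 10.42 in control cells. Untransfected cells had 10.34, 10.23 and 10.23. Hence the 48 h difference came with low control arrays (-0.99 ± 0.12 against untransfected cells, adjusted p = 2.19e-06) and the 144 h difference with low mir-429 arrays (-0.76 ± 0.12, adjusted p = 0.000369). DNAJB6 had 1 single-symbol probe set, so no other could be compared.

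DNAJB1, the main heat-inducible partner of HSP70, was higher in mir-429 cells at 2 times. It had 10.48, 10.53 and 10.54 in mir-429 cells at 24 h, against 10.25, 10.01 and 10.32 in control cells. After 48 h it had 10.25, 10.41 and 10.46 in mir-429 cells, against 9.70, 9.59 and 9.91 in control cells. The arms did not overlap, and the changes were 0.32 ± 0.10 (adjusted p = 0.0251) and 0.64 ± 0.10 (adjusted p = 0.000208). Against untransfected cells, which had 10.43, 10.45 and 10.32, the mir-429 arrays were not called at either time (0.12 and -0.03), while the control arrays were lower at 48 h (-0.66 ± 0.10, adjusted p = 3.24e-05). The 24 h call was lost with the mean of its probe sets (0.09, adjusted p = 0.598), its other probe set changing by -0.14, and without control replicate 2 (0.23, adjusted p = 0.0991). Quantile scaling, no filter on dim genes, the 3' minus 5' covariate and a fit of only the arrays compared also ended it (adjusted p from 0.0576 to 0.285). Leaving out any single mir-429 array of that time did so too (adjusted p from 0.053 to 0.0675).

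Other J-proteins passed the threshold at single times. DNAJA4 rose by 0.37 ± 0.11 at 24 h (adjusted p = 0.0149), with 6.71, 6.73 and 6.85 in mir-429 against 6.37, 6.43 and 6.37 in control cells. DNAJC21, which acts in the maturation of the large ribosomal subunit, rose by 0.36 ± 0.08 at 24 h (adjusted p = 0.00269), and its 5 other probe sets changed by 0.07 to 0.29. DNAJA3, the mitochondrial J-protein also called Tid1, rose by 0.53 ± 0.11 at 48 h (adjusted p = 0.00206). These 3 genes had arms that did not overlap at the time of the call. DNAJA2, a common partner of cytosolic HSP70, fell by 0.37 ± 0.12 at 48 h (adjusted p = 0.0403), but its other probe set changed by 0.39. DNAJC5, the cysteine string protein of secretory vesicles, fell by 0.34 ± 0.11 at 48 h (adjusted p = 0.0401), with arms that overlapped. In the average over times DNAJC4 was called at 0.32 ± 0.09 (adjusted p = 0.00952), and not with the mean of its probe sets (0.20, adjusted p = 0.0529) or with the 3' minus 5' covariate (0.24, adjusted p = 0.0807).

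At 144 h the 4 calls were all falls of J-proteins. DNAJC22 had 4.13, 4.56 and 4.28 in mir-429 cells, against 5.18, 5.09 and 5.05 in control cells (-0.78 ± 0.20, adjusted p = 0.0236), all near the array median. DNAJB12, a partner of DNAJB14 in the endoplasmic reticulum membrane, had 8.29, 8.20 and 8.59 in mir-429 and 8.64, 8.73 and 8.92 in control cells (-0.40 ± 0.11, adjusted p = 0.0413). DNAJA1, a farnesylated partner of HSP70, had 10.90, 10.90 and 10.87 in mir-429 and 11.34, 11.18 and 11.14 in control cells (-0.33 ± 0.09, adjusted p = 0.0423). In all 4 genes the arms were apart. The calls of DNAJC22 and DNAJB12 were lost after cyclic loess scaling (adjusted p = 0.0517 and 0.0762), and leaving out any single array of either arm ended the call of DNAJA1 (adjusted p from 0.0714 to 0.177). Leaving out 1 array also ended the calls of DNAJC22 and DNAJB12 in 5 of 6 fits each. DNAJB12 lost its call in 6 of 10 other settings and DNAJA1 in 3 of 10. The 3 other bright probe sets of DNAJB12 changed by between -0.24 and 0.11.

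**Figure D3:**
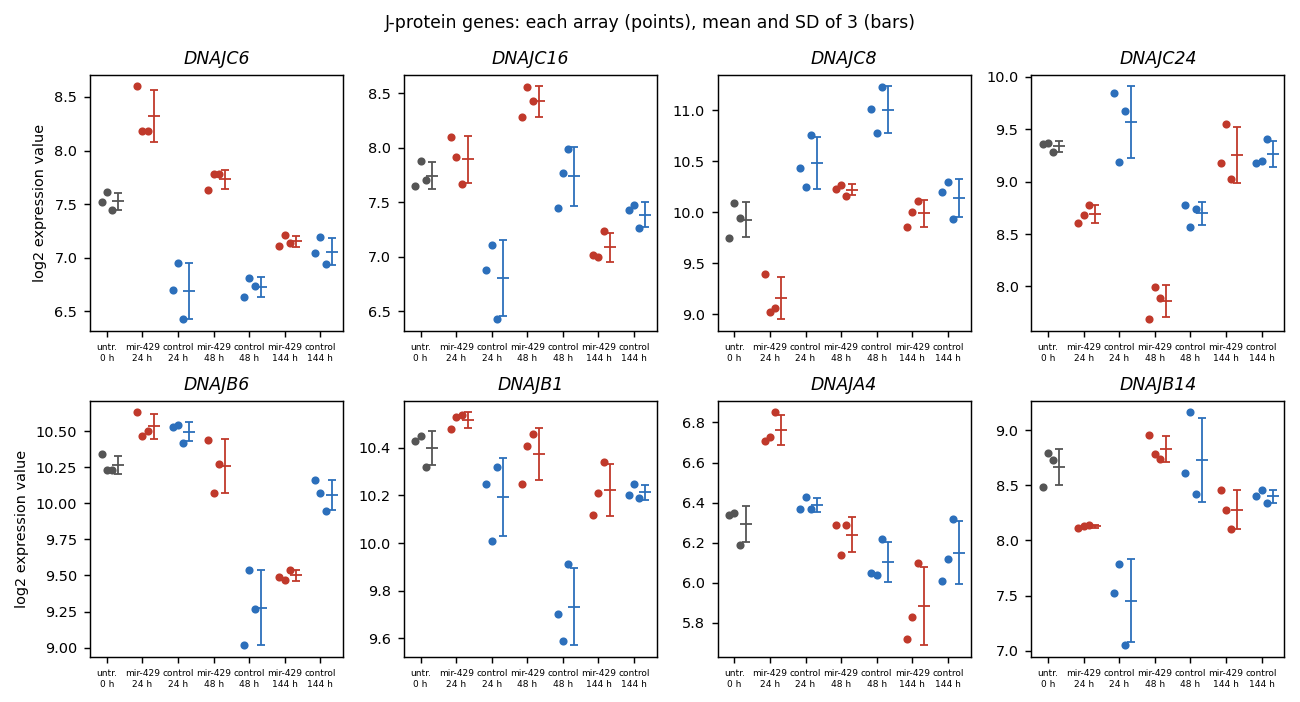
Log2 expression value (vertical axes, each with its own range) of 8 J-protein genes on each array, by group in time order; points are arrays, and bars to their right are the mean and SD of 3 arrays. DNAJC6 and DNAJC16 lie above control and DNAJC8 and DNAJC24 below it at 24 and 48 h, while DNAJB6 lies above control at 48 h and below it at 144 h.

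Among the HSP70 and HSP110 genes few calls were made. HSPA13, a microsomal HSP70 relative, had 10.54, 10.29 and 10.35 in mir-429 cells at 24 h, against 10.01, 9.82 and 9.76 in control cells. All mir-429 arrays were above control, by 0.53 ± 0.11 (adjusted p = 0.00217), but the other probe set of the gene changed by -0.55 and the mean of both was -0.01. HSPA4L rose by 0.44 ± 0.14 at 48 h (adjusted p = 0.0327), with 7.18, 7.26 and 7.03 in mir-429 and 6.29, 6.85 and 7.02 in control cells, and without control replicate 1 it did not pass (0.23, adjusted p = 0.173). HSPH1 changed by 0.21, 0.28 and -0.13 at the 3 times, none called. HSPA6, an HSP70 gene that cells hardly express unless stressed, was at 4.33, 4.59 and 4.88 in mir-429 cells at 24 h and at 4.75, 5.36 and 5.23 in control cells, a change of -0.51 ± 0.20 that was not called (adjusted p = 0.0651). HSPA9, the HSP70 of mitochondria, was lower by -0.14 ± 0.05 in the average over times (adjusted p = 0.0364); the call was lost with the mean of its probe sets (-0.11, adjusted p = 0.131), with no filter, with the 3' minus 5' covariate, with only the arrays compared and in 10 fits that left out 1 array.

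HSP90AA1, the inducible cytosolic HSP90, had 13.63, 13.60 and 13.54 in mir-429 cells at 24 h, against 13.40, 13.47 and 13.30 in control cells. In the 48 h arrays it had 13.77, 13.90 and 13.86 in mir-429 and 13.70, 13.58 and 13.50 in control cells. The arms were apart at both times, yet neither change was called (0.19, adjusted p = 0.113 and 0.25, adjusted p = 0.0501). The average over times was called at 0.16 ± 0.05 (adjusted p = 0.0264), and not after cyclic loess scaling (0.11, adjusted p = 0.132). HSP90AB1, its constitutive relative, changed by 0.14, 0.12 and 0.08 with no call. HSPB1, HSPD1 and HSPE1 changed by between -0.09 and 0.15 over the 3 times with no call, and HSF1 by -0.23, -0.16 and 0.04.

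The CCT genes encode the subunits of the cytosolic chaperonin ring. Of 8 tested, 1 was higher and 2 were lower at 24 h, with 15.0% and 11.6% of all genes. At 48 h 1 was higher, with 9.32% of all genes, and at 144 h 0 were called, with 5.85%. CCT2 had 12.68, 12.75 and 12.79 in mir-429 cells at 24 h, against 12.48, 12.45 and 12.50 in control cells (0.26 ± 0.07, adjusted p = 0.0128), and it rose by 0.31 ± 0.07 at 48 h (adjusted p = 0.00533). CCT7 fell by 0.44 ± 0.15 at 24 h (adjusted p = 0.0348), with 11.16, 11.51 and 11.43 in mir-429 and 11.74, 11.64 and 12.03 in control cells. CCT4 was lower by -0.27 ± 0.08 (adjusted p = 0.021), while its other probe set changed by 0.33. Both falls lost their call with no filter on dim genes (adjusted p = 0.0638 for CCT7 and 0.0598 for CCT4) or only the arrays compared (0.0708 and 0.113). They also lost it with the 3' minus 5' covariate (-0.32, adjusted p = 0.495 and -0.24, adjusted p = 0.316). Leaving out 1 array ended the call of CCT7 in 4 of 6 fits and that of CCT4 in 3 of 6. The other probe set of CCT2 changed by 0.16 at 24 h and 0.49 at 48 h.

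Of the 6 BAG genes 2 were lower at 24 h, where 11.6% of all genes were, and 0 were called at 48 and 144 h, where 20.6% and 5.85% of all genes were. BAG1, the first described nucleotide exchange factor of HSP70, had 8.21, 8.54 and 8.63 in mir-429 cells at 24 h, against 8.70, 9.02 and 9.27 in control cells (-0.54 ± 0.15, adjusted p = 0.0122). BAG6, which guards tail-anchored and mislocalised proteins, had 10.51, 10.82 and 10.67 in mir-429 and 10.93, 11.12 and 11.15 in control cells (-0.40 ± 0.12, adjusted p = 0.0195). In both genes all mir-429 arrays lay below all control arrays. Both calls were lost with the 3' minus 5' covariate (-0.05 and -0.26) and without control replicate 3. The 2 other bright probe sets of BAG1 changed by -0.27 and 0.52. With the mean of its probe sets BAG1 was not called (-0.10, adjusted p = 0.624). The 3 other bright probe sets of BAG6 changed by between -0.44 and 0.03. BAG3, an HSF1 target that couples small heat shock proteins to autophagy, changed by -0.25, 0.05 and 0.20 with no call.

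The size of the mir-429 effect was compared between times within the same model. Between 24 and 48 h it differed for 1 of the 63 genes (1.59%), DNAJB6, where 4.89% of all genes differed, 1.75% towards a higher and 3.14% towards a lower effect at 48 h. Between 24 and 144 h it differed for 12 genes (19.0%), 4 towards a higher and 8 towards a lower effect at 144 h, with a background of 18.6%, of which 6.32% and 12.3% ran these ways. DNAJC6 (-1.53 ± 0.18, adjusted p = 4.18e-05) and DNAJC16 (-1.39 ± 0.23, adjusted p = 0.000749) had a lower effect at 144 h, and DNAJC8 (1.17 ± 0.21, adjusted p = 0.00122) and DNAJC24 (0.87 ± 0.21, adjusted p = 0.00924) a higher one. The difference in DNAJC24 was 0.21 with the mean of its probe sets (adjusted p = 0.597), and its other probe set gave -0.46. After cyclic loess or quantile scaling 10 genes differed, 5 in each direction. The count between 24 and 144 h was 5 without control replicate 3 at 24 h or control replicate 1 at 144 h, and 6 without mir-429 replicate 1 at 24 h or control replicate 2 at 144 h. Between 24 and 48 h it was 8 without control replicate 2 at 24 h, and 3 without control replicate 1 at 24 h or control replicate 1 or 3 at 48 h.

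More chaperone genes were called between control and untransfected cells than between the arms at 24 and 48 h, as was so over all genes (38.0% against 26.6% at 24 h and 54.5% against 20.6% at 48 h). At 24 h the control cells had higher BAG1, BAG2, CCT7 and DNAJC1 and lower DNAJC18, DNAJB14, HSPA13 and DNAJC16 than untransfected cells. At 48 h, on the arrays with the high 3' minus 5' signal, falls outnumbered rises, as they did over all genes (36.1% lower and 18.4% higher), and at 144 h no chaperone gene was called, with 0.474% of all genes.

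At 24 h, 28 of the 63 genes (44.4%) were called in control against untransfected cells, 18 higher and 10 lower, with a background of 38.0%, 18.3% higher and 19.8% lower. Their median change was 0.113, against 0.038 over all genes tested. At 48 h, 40 genes (63.5%) were called, 11 higher and 29 lower, with a background of 54.5%, 18.4% higher and 36.1% lower. Their median was -0.236, against -0.164. Cyclic loess scaling moved the median of all genes at 48 h to -0.062 and left 39 chaperone genes called, 13 higher and 26 lower. With the 3' minus 5' covariate 0 of the 63 genes were called at 48 h and 12 at 24 h. Over all 12879 genes tested, 76 were called at 48 h and 2118 at 24 h with this covariate. Because its signal set the 48 h arrays apart from all others, this fit could hardly separate it from the change at 48 h. Of 18 genes called at 48 h that had another bright probe set, 9 had at least 1 with the opposite sign. At 144 h, 0 genes were called by limma, with a background of 0.474%, 0.280% higher and 0.194% lower. An unadjusted limma p under 0.05 was reached by 11 of the 63 genes and by 14.3% of all genes tested. All 63 changes were then within 0.5 in size.

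In mir-429 cells against the same untransfected arrays, 24 genes (38.1%) were called at 24 h, 18 higher and 6 lower, with a background of 23.0%, 11.7% higher and 11.3% lower. At 48 h, 30 genes (47.6%) were called, 14 higher and 16 lower, with a background of 56.7%, 19.1% higher and 37.5% lower. At 144 h, 14 genes (22.2%) were called, 3 higher and 11 lower, with a background of 18.9%, 6.62% higher and 12.3% lower. The share of higher calls at 24 h stood above the background in both arms. Both sets of comparisons share the 3 untransfected arrays. With the 3' minus 5' covariate 0 genes were called in mir-429 cells at 48 h. The 24 h count was 14 without mir-429 replicate 3 and 15 without untransfected replicate 3, and the 144 h count was 3 to 8 without any 1 array of either group.

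**Figure D4:**
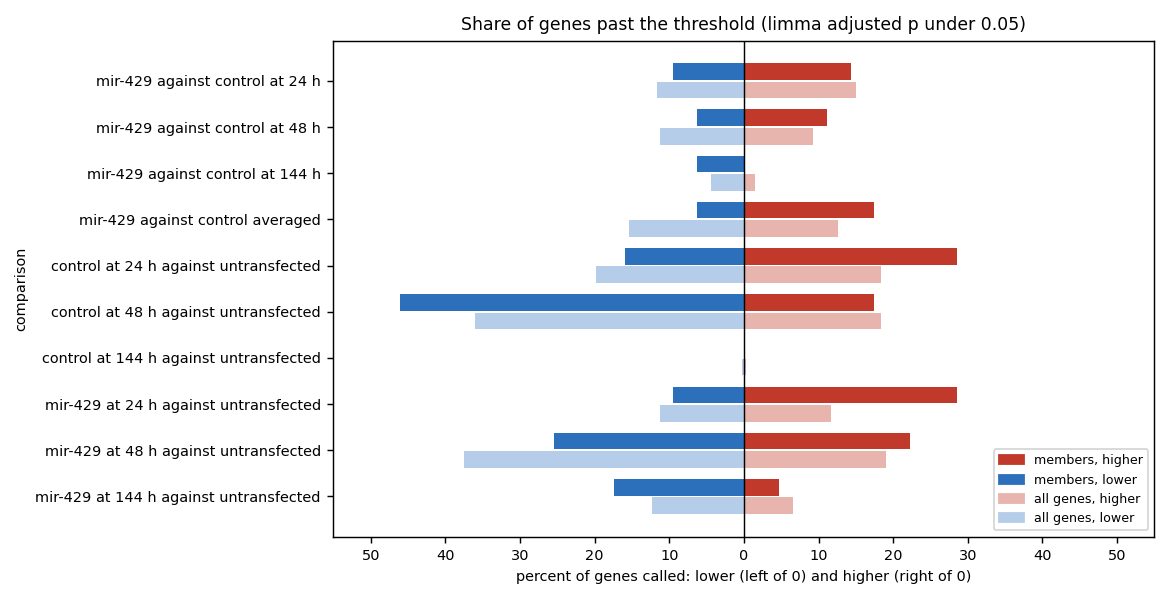
Percent of the 63 chaperone genes (dark bars) and of all 12879 genes tested (light bars) that passed the limma threshold in 10 comparisons, higher to the right of 0 and lower to the left. In the averaged comparison of mir-429 with control the dark bar is longer than the light one for higher calls (17.5% against 12.6%) and shorter for lower calls (6.35% against 15.4%). The dark bars for higher calls reach past the light ones at 24 h in both arms against untransfected cells (28.6% against 18.3% in control and 28.6% against 11.7% in mir-429 cells).

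DNAJC18, a J-protein of the endoplasmic reticulum membrane, was the gene with the largest change against untransfected cells. It had 7.14, 8.10 and 7.14 in control cells at 24 h, 6.60, 6.71 and 6.36 at 48 h and 8.65, 8.69 and 8.81 at 144 h, against 9.30, 9.06 and 8.81 in untransfected cells. In mir-429 cells it had 7.80, 7.48 and 7.64 at 24 h, 6.56, 6.08 and 6.30 at 48 h and 8.15, 7.89 and 8.26 at 144 h. Both arms were thus lowest at 48 h, with changes of -2.50 ± 0.21 in control (adjusted p = 4.16e-08) and -2.74 ± 0.21 in mir-429 cells (adjusted p = 9.48e-09), and at 144 h the fall was called in mir-429 cells (-0.95 ± 0.21, adjusted p = 0.00484) and not in control cells. The arms did not overlap at 144 h, but the test between them did not pass (-0.62 ± 0.21, adjusted p = 0.0925).

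HSPB1, which encodes HSP27 and was the 1 small heat shock gene bright enough to test, showed a similar course in both arms. It had 9.42, 9.89 and 9.57 in control cells at 24 h, 8.95, 8.76 and 9.27 at 48 h and 10.22, 10.20 and 10.20 at 144 h, against 10.11, 10.11 and 10.12 in untransfected cells. In mir-429 cells it had 9.60, 9.89 and 9.53 at 24 h, 8.87, 8.85 and 9.08 at 48 h and 10.16, 10.24 and 10.30 at 144 h. All 24 and 48 h arrays were below all untransfected arrays, with changes of -0.49 ± 0.13 (adjusted p = 0.00756) and -1.12 ± 0.13 (adjusted p = 2e-06) in control cells. In mir-429 cells they were -0.44 ± 0.13 (adjusted p = 0.0218) and -1.18 ± 0.13 (adjusted p = 8.86e-07). Leaving out 1 array ended the mir-429 call at 24 h in 5 of 6 fits, and the control call at 24 h was lost in 1 of 10 other settings. At 48 h both calls were lost with the 3' minus 5' covariate, which could hardly be separated from the change at that time.

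BAG3 and, on its brightest probe set, BAG2, an inhibitor of the ubiquitin ligase CHIP, rose in both arms. BAG2 had 8.19, 7.90 and 8.11 in control cells at 24 h and 8.24, 8.89 and 8.22 at 48 h, against 7.46, 7.40 and 7.45 in untransfected cells (0.63 ± 0.18, adjusted p = 0.00909 and 1.02 ± 0.18, adjusted p = 0.000105). In mir-429 cells it had 8.12, 8.19 and 8.16 at 24 h and 9.25, 8.49 and 8.88 at 48 h (0.72 ± 0.18, adjusted p = 0.00613 and 1.44 ± 0.18, adjusted p = 2.41e-06). All of these arrays lay above all untransfected arrays. BAG3 had 9.90, 9.89 and 9.93 in control cells at 24 h and 10.32, 10.10 and 10.38 at 48 h, against 9.58, 9.55 and 9.39 in untransfected cells (0.40 ± 0.10, adjusted p = 0.00459 and 0.76 ± 0.10, adjusted p = 6.65e-06). In mir-429 cells BAG3 was called at 48 h (0.81 ± 0.10, adjusted p = 2.73e-06) and not at 24 h (0.15, adjusted p = 0.322). The 2 other bright probe sets of BAG2 had the opposite sign at 48 h, changing by -0.38 and -0.20 in control and by -0.59 and -0.12 in mir-429 cells. At 24 h they changed by 0.05 and 0.16 in control and by -0.34 and 0.28 in mir-429 cells.

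Further named genes passed the threshold in control or mir-429 cells. HSPA6 was at 4.75, 5.36 and 5.23 in control cells at 24 h, against 4.26, 4.11 and 4.35 in untransfected cells. The mean of the untransfected arrays lay below the array median, so the rise was at least 0.82 (adjusted p = 0.00231). BAG1 rose by 0.81 ± 0.15, CCT7 by 0.60 ± 0.15 and DNAJC1 by 0.58 ± 0.12 in control cells at 24 h, and DNAJB14 fell by 1.21 ± 0.18, HSPA13 by 0.97 ± 0.11, DNAJC16 by 0.94 ± 0.16 and BAG4 by 0.89 ± 0.20. With the mean of their probe sets BAG4 (-0.13, adjusted p = 0.567) and BAG1 (0.29, adjusted p = 0.0891) were not called, and with the 3' minus 5' covariate neither were these (-0.54, adjusted p = 0.137 and 0.42, adjusted p = 0.0546) nor CCT7 (0.50, adjusted p = 0.0931). HSP90AA1 fell by 0.37 ± 0.09 at that time (adjusted p = 0.00295), and by 0.18 with the mean of its probe sets, which was not called (adjusted p = 0.198). The other probe set of HSPA13 changed by 0.38, the others of BAG1 by between -0.64 and 0.68 and those of BAG4 by between -0.10 and 0.60. HSPA13 was called at 48 h too (-0.46), and CCT7 in the opposite direction (-0.58). At 48 h DNAJC21 rose by 0.89 ± 0.08 and HSPA9 by 0.49 ± 0.08 in control cells. HSPA9 was also called at 24 h (0.26), and at 48 h it was not called with the mean of its probe sets (0.11, adjusted p = 0.298). In control cells at 48 h HSPA12A, a distant HSP70 relative, fell by 1.68 ± 0.26 and DNAJC4 by 1.45 ± 0.15. HSPE1 fell by 0.32 ± 0.08 (adjusted p = 0.00356) and HSPD1, its neighbour in the genome and partner in the mitochondrial chaperonin, was not called (0.13, adjusted p = 0.168). All changes given here without an adjusted p passed the threshold. In mir-429 cells DNAJB11, a partner of the HSP70 of the endoplasmic reticulum, rose by 0.62 ± 0.13 at 24 h, and BAG6 by 0.44 ± 0.12 and DNAJC19 by 0.39 ± 0.13 at 144 h. With the mean of their probe sets BAG6 (0.29, adjusted p = 0.0773) and DNAJC19 (0.17, adjusted p = 0.33) were not called at 144 h. DNAJC19 also lost its call without any 1 of the 6 arrays compared, and its other probe set changed by -0.06. HSPE1 was called higher in mir-429 than in untransfected cells at 24 h (0.29), and HSPH1 (0.37), HSP90AB1 (0.28) and HSPD1 (0.26) at 48 h. Other bright probe sets of these last 3 changed by -0.54 to 2.23, -1.58 to 0.37 and -0.25 to 1.71. Their 48 h calls were lost with the 3' minus 5' covariate. Leaving out 1 array ended the calls of HSPE1 and HSPH1 in 2 of 6 fits each and that of HSP90AB1 in 4 of 6.

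**Figure D5:**
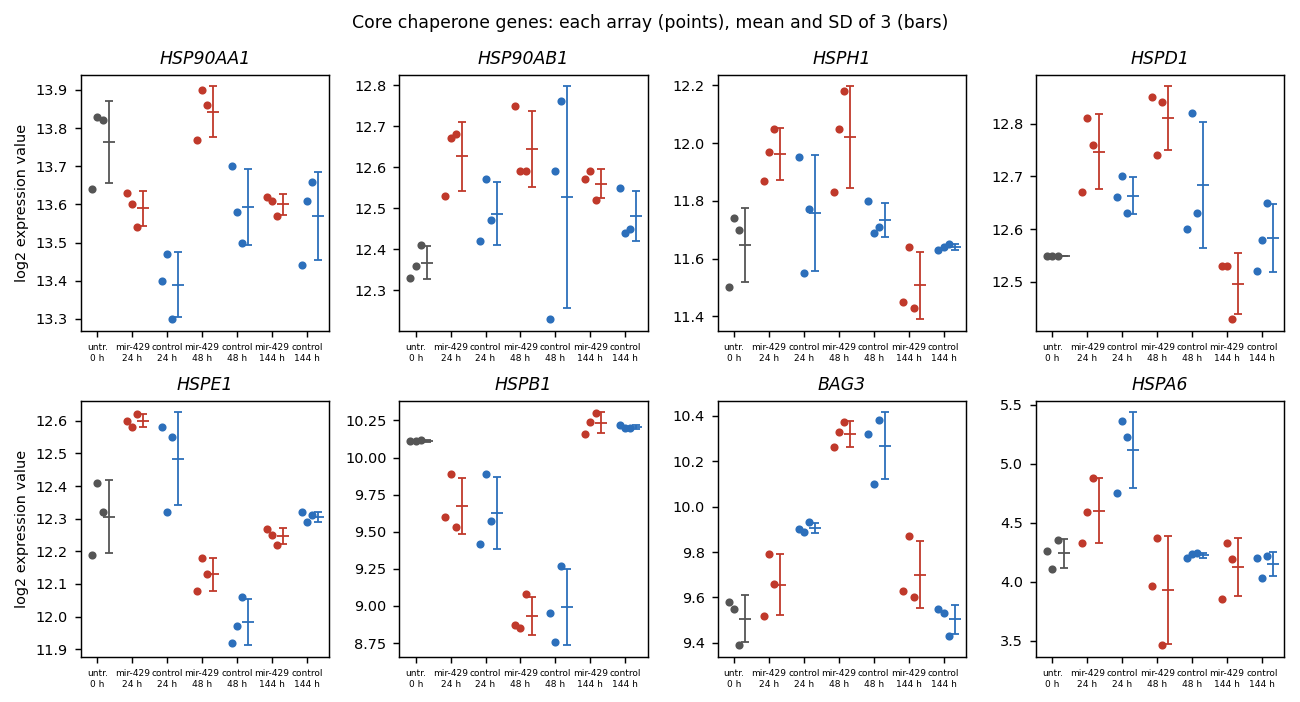
Log2 expression value (vertical axes, each with its own range) of 8 core chaperone genes on each array, by group in time order; points are arrays, and bars to their right are the mean and SD of 3 arrays. HSPB1 is lowest and BAG3 highest at 48 h in both arms, and HSPA6 is highest in control cells at 24 h.

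Promoters were searched for a heat shock element of 3 units, GAANNTTCNNGAA on either strand, in the 300 bases from 250 before to 50 after the start of each gene in RefSeq (GRCh38.p14). A promoter was found for 68 of the 77 genes, and 3 of them (4.41%) held the element, against 172 of 35116 promoters (0.49%) of the same length. The 3 are shown because these genes were called in different comparisons, with the element in capitals; in HSPA6 it runs on the opposite strand. The windows are chr9:33025023-33025322 for DNAJA1, chr7:157336754-157337053 for DNAJB6 and chr1:161524290-161524589 for HSPA6, all on the plus strand.
DNAJA1: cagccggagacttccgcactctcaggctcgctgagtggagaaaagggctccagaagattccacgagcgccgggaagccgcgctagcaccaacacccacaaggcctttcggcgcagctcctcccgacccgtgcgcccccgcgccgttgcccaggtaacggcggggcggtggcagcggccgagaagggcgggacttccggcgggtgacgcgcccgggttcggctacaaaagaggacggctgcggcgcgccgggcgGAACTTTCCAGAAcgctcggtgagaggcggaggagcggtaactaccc
DNAJB6: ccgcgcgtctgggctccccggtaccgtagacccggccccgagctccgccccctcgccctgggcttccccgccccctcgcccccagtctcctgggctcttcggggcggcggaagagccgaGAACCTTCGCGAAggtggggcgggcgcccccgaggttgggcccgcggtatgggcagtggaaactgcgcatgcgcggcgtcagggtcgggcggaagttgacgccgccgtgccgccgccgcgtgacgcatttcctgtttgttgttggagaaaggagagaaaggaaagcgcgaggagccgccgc
HSPA6: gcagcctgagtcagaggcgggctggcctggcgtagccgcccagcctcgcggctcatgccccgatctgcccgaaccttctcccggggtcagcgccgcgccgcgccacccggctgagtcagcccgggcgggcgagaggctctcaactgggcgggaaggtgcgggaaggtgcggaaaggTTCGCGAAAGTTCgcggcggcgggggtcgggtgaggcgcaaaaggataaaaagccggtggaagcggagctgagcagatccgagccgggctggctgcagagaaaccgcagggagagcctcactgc

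In control against untransfected cells at 24 h, 2 of these 3 genes were higher, DNAJA1 (0.53 ± 0.09, adjusted p = 0.000316) and HSPA6, and DNAJB6 changed by 0.23. Of the 53 tested genes whose promoter lacked the element 14 were higher and 9 lower, and of all genes 18.3% and 19.8%. In mir-429 against control cells at 144 h, DNAJA1 and DNAJB6 were lower, as was 1 of the 53 others and 4.37% of all genes. With 3 genes the counts describe these promoters only, and other forms of the element were not searched.

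Heat-inducible genes as a list, 15 genes of which 11 were tested, gave 1 higher and 0 lower in mir-429 against control cells at 24 h, 2 and 0 at 48 h, and 0 and 1 at 144 h. In control against untransfected cells they gave 4 higher and 2 lower at 24 h, 1 and 4 at 48 h, and 0 calls at 144 h. Over all genes 26.6%, 20.6% and 5.85% were called between the arms, and 38.0%, 54.5% and 0.474% in control against untransfected cells. Its median in mir-429 against control cells was 0.08, 0.12 and -0.03 at the 3 times.

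Chaperones and cochaperones that the symbol rule does not take were followed as a list of 43 genes, of which 37 were tested. In mir-429 against control cells 5 were higher and 5 lower at 24 h, 3 and 5 at 48 h, and 0 at 144 h; over all genes it was 15.0% and 11.6%, 9.32% and 11.3%, and 5.85%. SEC63, a J-protein of the translocation channel of the endoplasmic reticulum, rose by 0.54 ± 0.10 at 24 h (adjusted p = 0.000567) and 0.40 ± 0.10 at 48 h (adjusted p = 0.00715). IER5, a coactivator of HSF1, fell by 0.73 ± 0.09 at 24 h (adjusted p = 1.27e-05) and 0.32 ± 0.09 at 48 h (adjusted p = 0.0134). CLPB, a disaggregase of mitochondria, fell by 0.54 ± 0.15 (adjusted p = 0.0149) and 0.68 ± 0.15 (adjusted p = 0.00388). These 3 were the genes of the list called in the same direction at both times, and they were singled out after their values were seen. In control against untransfected cells 12 of the list were higher and 3 lower at 24 h, 8 and 12 at 48 h, and 0 were called at 144 h, where over all genes 18.3% and 19.8%, 18.4% and 36.1%, and 0.474% were. Of the 3 endoplasmic reticulum stress genes left out by the rule, DNAJB9 was higher at 24 h in mir-429 against control cells (0.42 ± 0.14, adjusted p = 0.0342).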

How the data were processed

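The values deposited by the authors were on a log2 scale, 1 per probe set; the submitters' processing notes name RMA, with software and version not given in the sources used here. Values ran from 0.75 to 14.97 over 54675 probe sets. GEO's platform annotation gave 1 symbol to 41097 probe sets, several to 1801 and none to 11777, and symbols were updated through a RefSeq table of GRCh38.p14 (99.9% matched). A gene was read from its brightest single-symbol probe set. Genes above the array median on at least 3 arrays were tested, which kept 12879 of 19775 genes.

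Groups were compared with limma (version 3.58.1, R 4.3.3; two-sided lmFit and eBayes, 7 group means, 14 residual degrees of freedom), with Benjamini-Hochberg adjustment over all genes tested and a threshold of 0.05; the script was tested on simulated data. Where a dim group's mean lay below the array median, its values were raised to the median and the change printed as a bound. Scaling, filters, the summary of probe sets, a 3' minus 5' covariate, array weights and left-out arrays were varied. Neither scan dates nor batches are in the labels.

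The members, lists and tests were chosen with earlier results of these data known. Genes always named were 12 core members where measured, and 10 of them were tested. The others named were the up to 8 largest rises and falls past the threshold in each comparison of mir-429 with control at 1 time. In the averaged, between-time and control comparisons they were up to 5 per direction, and in mir-429 against untransfected cells up to 3. Arrays give no depth, and their number limits precision. No 2 arrays held identical values.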

Additional observations from a re-analysis of the deposited data

Results flagged for a closer look

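The effect of mir-429 against control differed between times for 13 results among the 63 chaperone genes, each by limma's test of the difference itself. DNAJB6 had a higher effect at 48 h than at 24 h (0.95 ± 0.17, adjusted p = 0.0053). At 144 h against 24 h the effect was higher for DNAJC8 (1.17, adjusted p = 0.00122), DNAJC24 (0.87, adjusted p = 0.00924), BAG6 (0.58, adjusted p = 0.0246) and BAG3 (0.45, adjusted p = 0.0345). It was lower for DNAJC6 (-1.53, adjusted p = 4.18e-05), DNAJC16 (-1.39, adjusted p = 0.000749), DNAJC22 (-0.89, adjusted p = 0.0324), DNAJB14 (-0.79, adjusted p = 0.0341), DNAJA4 (-0.64, adjusted p = 0.00783), DNAJB6 (-0.59, adjusted p = 0.0194), DNAJA3 (-0.46, adjusted p = 0.0484) and CCT2 (-0.31, adjusted p = 0.0402). With the mean of probe sets DNAJC24 (0.21, adjusted p = 0.597), DNAJA4 (-0.37, adjusted p = 0.284) and DNAJB14 (-0.57, adjusted p = 0.108) were not called. BAG6, BAG3, DNAJC22 and DNAJB14 lost the call with no filter on dim genes (adjusted p from 0.0506 to 0.0771), with the 3' minus 5' covariate (0.0939 to 0.139) and in 5, 8, 7 and 9 fits that left out 1 array. DNAJC22 also lost it after quantile scaling (adjusted p = 0.074) and DNAJB14 after cyclic loess scaling (adjusted p = 0.0518). For DNAJC8, DNAJC24, DNAJC6 and DNAJC16 the effect at 144 h was not called, and for DNAJB6 it had the opposite sign to that at 48 h. With the 3' minus 5' covariate the difference between 48 and 24 h in DNAJB6 was 1.14 (adjusted p = 0.168).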

How the results depend on the processing

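Counts are of the 63 chaperone genes called. In mir-429 against control cells at 24 h (15) there were 8 with the mean of all probe sets of a gene, 4 with the 3' minus 5' covariate and 30 with array weights. At 48 h (11) there were 5 with only the arrays compared. At 144 h (4) there were 2 after cyclic loess or quantile scaling or with no filter on dim genes, and 9 with array weights. The averaged count (15) was 9 with the covariate. The difference of the effect between 48 and 24 h (1) was 0 with the covariate or only the arrays compared, and 2 after either scaling, with a filter on the mean, array weights or the replicate block. Between 144 and 24 h (12) it was 6 with no filter, 5 with the covariate and 25 with weights. In control against untransfected cells at 24 h (28) there were 16 with the probe set mean, 12 with the covariate and 44 with weights; at 48 h (40) 0 with the covariate; at 144 h (0) 2 with only the arrays compared and 24 with weights. In mir-429 against untransfected cells at 24 h (24) there were 14 with the probe set mean and 43 with weights; at 48 h (30) 0 with the covariate; at 144 h (14) 8 with no filter, 5 with the probe set mean and 29 with weights. Counts over all genes tested shifted too. Between the arms at 24 h they were 3425 in the main fit, 614 with the covariate and 6205 with weights. In control against untransfected cells at 48 h they went from 7022 to 76 with the covariate. For mir-429 against untransfected cells at 48 h they went from 7296 to 72. In control against untransfected cells at 144 h they went from 61 to 4006 with weights. The fit of array weights stopped before it converged. The cause of these shifts was not tested.

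Leaving out 1 array gave 9 to 18 at 24 h, 10 to 13 at 48 h, 1 to 2 at 144 h and 14 to 21 for the average of mir-429 against control, 1 to 8 and 5 to 16 for the differences between times, 24 to 31, 35 to 38 and 0 (at 24, 48 and 144 h) for control against untransfected cells, and 14 to 22, 27 to 30 and 3 to 8 for mir-429 against untransfected cells. At 24 h between the arms the count was 9 without control replicate 3 or mir-429 replicate 1 and 18 without control replicate 2. The replicate block gave 16, 12, 4 and 16 for mir-429 against control at 24, 48 and 144 h and averaged. With 3 arrays per group it could not be settled whether the replicate numbers pair the arrays. At 24 h same-numbered deviations of the arms correlated at 0.091 to 0.279, and others at -0.289 to 0.103. At 48 h these ranges were -0.127 to 0.094 and -0.152 to 0.221, and at 144 h -0.059 to 0.203 and -0.174 to 0.213. The best match of a mir-429 array was its own number for 2 arrays at 24 h, 1 at 48 h and 1 at 144 h. After cyclic loess scaling mir-429 at 144 h against untransfected cells gave 5 higher and 7 lower, and after quantile scaling 5 and 5, instead of 3 and 11. Between the arms, the mean of probe sets changed the sign of HSPA13 (-0.01, adjusted p = 0.959) and CCT4 (0.03, adjusted p = 0.878) at 24 h and of DNAJA2 (0.01) at 48 h. These values lay near 0. Against untransfected cells it changed the sign of HSP90AA1 in control cells at 48 h (0.39), which the main fit did not call. The same held for the sign of HSP90AB1 in mir-429 cells at 48 h (-0.31), which the main fit called higher. The covariate changed the sign of HSPE1 in control cells at 48 h (0.10, not called). Among values of named genes, 48 lost their call with the sign kept and 1 changed sign with the covariate. With the probe set mean 27 lost their call with the sign kept and 5 changed sign. A change of sign was counted where either fit called the gene, so it is no call in the opposite direction. Lost calls numbered 17 with no filter and 17 with only the arrays compared. Signal limits 14 of the 77 genes, which were too dim to test.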
